A study of Arabidopsis thaliana with 72 samples.

Results

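CCL, the CCR-LIKE gene at locus AT3G26740 of Arabidopsis thaliana, was followed over 2 days of continuous light on ATH1 arrays. It was taken as the probe set that the array annotation gives to CCL, 257832_at, which is 1 of 22810 probe sets on the array and 1 of 13350 genes that the annotation names. It was chosen by measured values of these arrays, its strong rhythm in untreated seedlings and its smaller amplitude in the other conditions, so those values are a description and carry no test. The 72 arrays held RNA from aerial tissue of seedlings in 3 groups of 24. They were nicotinamide-treated wild type of accession C24, the toc1-1 mutant, which carries an EMS-induced mutation in At5g61380 and received no treatment, and untreated wild type of C24. Each group was sampled in duplicate at 12 times, beginning at 49 h and ending at 93 h with a step of 4 h. The plants had spent 11 days at 19 °C with 12 h of light a day before continuous light began, and the labels do not say where the hours start. Nicotinamide blocks the enzyme that makes cyclic ADP-ribose, a calcium-releasing signal, and the study looked for circadian transcripts that are regulated together with cytosolic calcium. The labels give no dose for nicotinamide and no accession for toc1-1, whose plates held more seeds. They give developmental stage 1.03 for the first untreated time course and 1.04 for the 5 others. The annotation names no probe set for the mutated gene, which was not analysed here as a check of the label. The labels do not say that the time courses came from separate batches of seedlings, so errors and p values measure the spread between these arrays.

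CCL is a plant gene known from work on messenger RNA decay. Its transcript is short lived, and its decay has been reported to change with the circadian clock, through a sequence-specific decay pathway that also acts on SEN1. The level of such a transcript follows both its synthesis and its removal, and an array measures only the level. The clock is a loop of transcription factors that repress each other in turn through the day, and the gene mutated in toc1-1 encodes an evening repressor of that loop. The mutant runs with a short period.

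CCL was among the brighter probe sets on all arrays. The values show a common scale, on which the mean signal of an array, without the highest and lowest 2% of probe sets, was 100. CCL lay between 523 and 3476 signal units under nicotinamide (median 1757, n = 24), between 367 and 2848 in toc1-1 (median 1506, n = 24) and between 166 and 4016 in untreated seedlings (median 1809, n = 24). Even on the array where it was lowest, CCL was brighter than or equal to 82.3% of all probe sets. The median signal of an array ran from 18.9 to 31.1 under nicotinamide, from 33.6 to 37.3 in toc1-1 and from 32.6 to 38.1 in untreated seedlings. The nicotinamide arrays were thus lower at their middle than all others, and the part of this in the CCL values was not tested apart from quantile normalization. In earlier results of these data the nicotinamide arrays of 77 h in the first time course and 85 h in the second stood apart, and without them the CCL peak under nicotinamide was 66.8 h, against 66.95 h with them.

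Under nicotinamide CCL went through a late, broad wave. The 2 arrays of a time are given in the order of the time courses. The signal was 1167 and 1357 at 49 h, 816 and 523 at 53 h, and 654 and 1002 at 57 h, the low part of the first day. It then stood at 1518 and 2044 at 61 h, 3476 and 3465 at 65 h, and 3158 and 2446 at 69 h. The arrays of 65 h were the highest of the condition and nearly coincided. On the second day the signal was 2483 and 2061 at 73 h and 1087 and 997 at 77 h. At 81 and 85 h the time courses parted, with 1807 and 1105 at 81 h and 1708 and 1181 at 85 h. They met again at 2388 and 2145 at 89 h and 3272 and 3360 at 93 h, where sampling ended before a fall was seen. The second maximum may therefore lie later than 93 h.

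In toc1-1 the wave was early and shallow, after a first trough deeper than the later one. The signal was 493 and 367 at 49 h, 1855 and 1395 at 53 h, 1935 and 1837 at 57 h and 1796 and 1559 at 61 h. It was 1097 and 907 at 65 h and 660 and 1453 at 69 h, the time at which the toc1-1 replicates differed most. On the second day it was 2087 and 1443 at 73 h, 2254 and 2626 at 77 h, 2473 and 2848 at 81 h and 1860 and 2005 at 85 h. The last times had 1068 and 1217 at 89 h and 1390 and 1169 at 93 h. Each toc1-1 time course was highest at 81 h and lowest at 49 h, and no array of the second day came near the 49 h values.

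In untreated seedlings the wave was tall and regular. The signal was 304 and 166 at 49 h, 891 and 645 at 53 h, 2826 and 1506 at 57 h and 2900 and 3345 at 61 h. It was 2251 and 2323 at 65 h and 1325 and 1049 at 69 h. The next trough was at 73 h, with 317 and 447, and was followed by 1058 and 906 at 77 h, 2735 and 2174 at 81 h and 3394 and 4016 at 85 h. The series closed with 2683 and 2972 at 89 h and 1137 and 2111 at 93 h. Both time courses were lowest at 49 and 73 h and highest at 61 and 85 h, 24 h apart, although 49 h was the first time sampled. The largest log2 step between neighbouring times was -2.01, between 69 and 73 h in the first time course, and 1.86, between 49 and 53 h in the second.

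**Figure D1:**
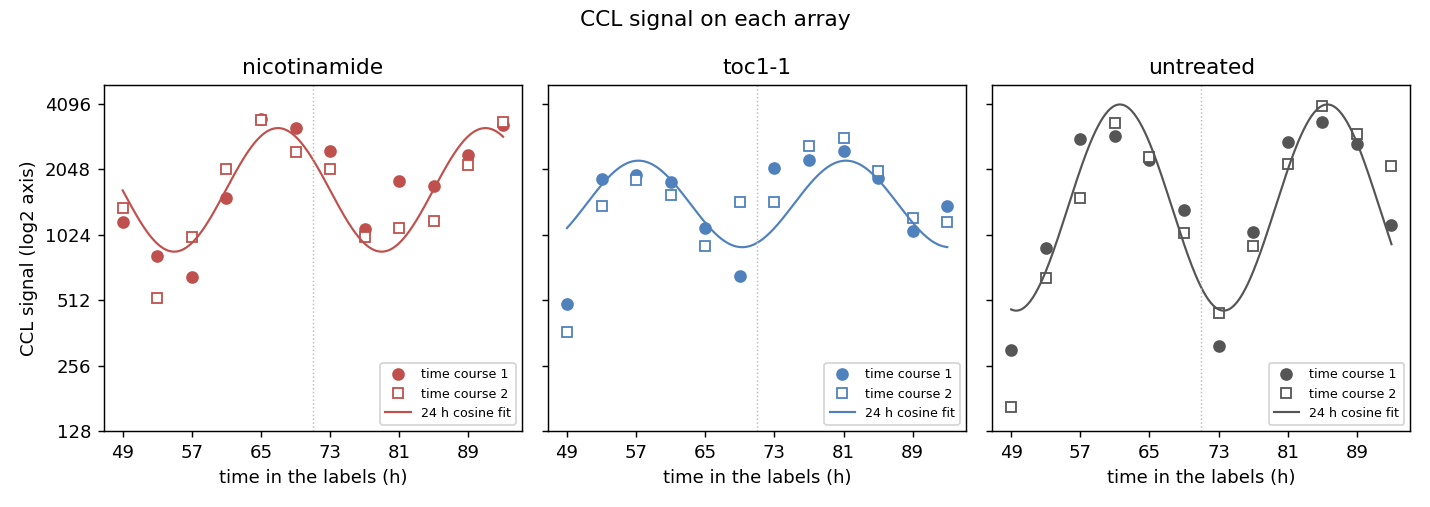
CCL signal on a log2 axis against the time in the labels, for nicotinamide, toc1-1 and untreated seedlings, with filled circles for time course 1, open squares for time course 2, the 24 h cosine fit as a line and the border between the days dotted. The untreated points swing from 166 to 4016, the nicotinamide points are highest at 65 and 93 h, and the toc1-1 points are highest at 81 h.

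A cosine of 24 h was fitted to log2(signal + 16) of all 24 arrays of a condition. Amplitude is the height of its crest above its mean, and peaks are given as the first crest at or after 49 h in the hours of the labels. Under nicotinamide the amplitude of CCL was 0.93 ± 0.09 (SE, n = 24 arrays) and the peak 66.95 ± 0.36 h. In toc1-1 the amplitude was 0.65 ± 0.09 and the peak 57.3 ± 0.51 h (SE, n = 24). In untreated seedlings the amplitude was 1.55 ± 0.09 and the peak 61.6 ± 0.22 h (SE, n = 24). The crest of the fitted curve was thus 3.65 times its trough under nicotinamide, 2.47 times in toc1-1 and 8.60 times in untreated seedlings. By amplitude CCL ranked 26 of the 13647 tested probe sets under nicotinamide, 92 in toc1-1 and 17 in untreated seedlings, where the median amplitudes of all tested probe sets were 0.16, 0.09 and 0.12 in that order. CCL was among the strongest cycling transcripts of each condition, with its own swing largest in untreated seedlings.

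The replicate time courses gave like amplitudes. Taken singly they were 0.91 and 0.96 under nicotinamide, 0.68 and 0.63 in toc1-1 and 1.51 and 1.62 in untreated seedlings, so the time courses of any condition did not overlap those of another. The amplitude gap from untreated seedlings was part of the choice of the gene, so that separation is no support. The peaks were 67.1 and 66.8 h under nicotinamide, 56.9 and 57.7 h in toc1-1 and 61.1 and 62.0 h in untreated seedlings, again without overlap. How often the 2 time courses of a condition separate in this way over all probe sets was not counted. The raw ratio of the highest to the lowest array of a time course was 5.32 and 6.62 under nicotinamide, 5.02 and 7.76 in toc1-1 and 11.2 and 24.2 in untreated seedlings. In toc1-1 the lowest arrays in that ratio were those of 49 h, and within its second day alone the ratio was 2.32 and 2.44.

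Nicotinamide was set against untreated seedlings, a contrast used in choosing the gene and so given as description. The CCL amplitude was lower by 0.62 ± 0.12 on the log2 scale (-0.62 as nicotinamide minus untreated, SE, 24 and 24 arrays), and the fitted peak came 5.37 ± 0.42 h later. Fitted by day, the peaks under nicotinamide and in untreated seedlings were 66.2 and 61.5 h on the first day. They were 92.3 and 85.7 h on the second. The gap was wider in these fits, and a change between the days was not shown by the test of the rhythm terms given below. The mean level over the 12 times was 10.70 under nicotinamide and 10.44 in untreated seedlings, a difference of 0.26 ± 0.09 (SE) against a median of -0.12 over all tested probe sets. The difference changed sign over the sampled hours, and not alike on both days: it was 0.60 at 65 h and -0.32 at 89 h. It was 2.40 at 49 h and 2.54 at 73 h, when untreated seedlings were at their trough, and these were 5.37-fold and 5.95-fold in signal. It was -1.33 at 57 h and -1.37 at 85 h, when the nicotinamide signal was 0.382 and 0.390 of the untreated one. The pairs of arrays did not overlap at 10 of 12 times, 5 with nicotinamide higher and 5 with nicotinamide lower. Over all tested probe sets and times, 66.8% of such comparisons did not overlap. After quantile normalization the amplitude difference was -0.47.

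The mutant toc1-1 was set against untreated seedlings in the same way. The amplitude difference was -0.90 ± 0.12 (SE, 24 and 24 arrays), and the fitted peak differed by -4.31 ± 0.56 h, which is earlier in toc1-1. When each condition was fitted at its own best period, the peak difference was -3.04 h. Fitted by day, the peaks of toc1-1 and untreated seedlings were 58.7 and 61.5 h on the first day. On the second they were 79.3 and 85.7 h. This gap, too, was wider in the fits without a change between the days being shown by that test. The mean level was 10.49 in toc1-1 and 10.44 in untreated seedlings, a difference of 0.05 ± 0.09 (SE), which is smaller than its error. By time the difference was highest at 73 h, with 2.16, and lowest at 89 h, with -1.30. The pairs did not overlap at 8 of 12 times, 4 higher and 4 lower in toc1-1, against 49.6% of comparisons over all tested probe sets. At 57, 69, 81 and 93 h they overlapped. Both comparisons share the untreated arrays, and in both the difference was greatest at 73 h, the untreated trough.

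**Figure D2:**
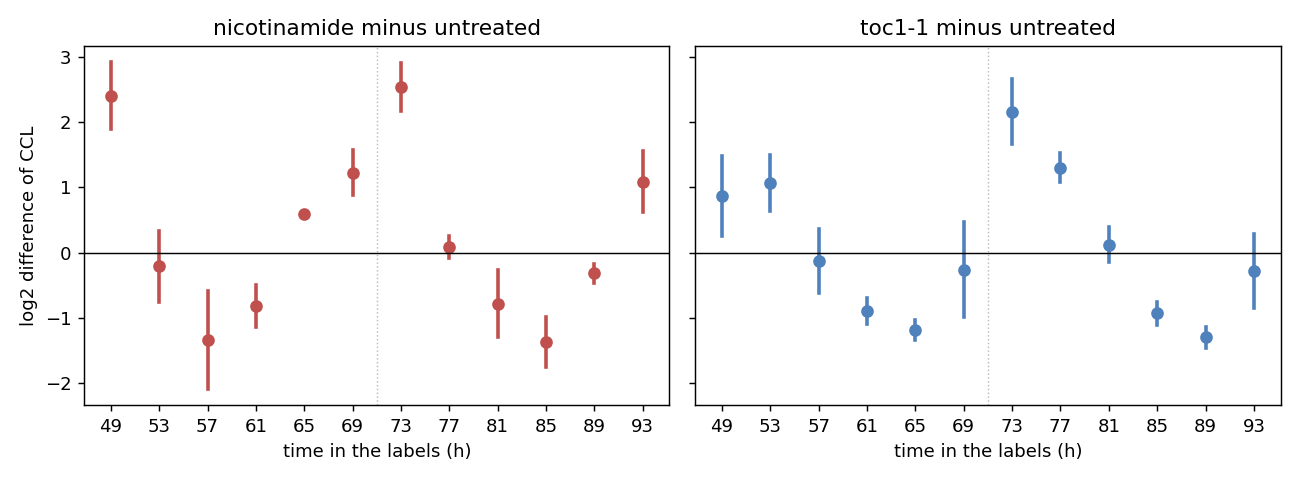
Log2 difference of CCL at each time, nicotinamide minus untreated and toc1-1 minus untreated, with points for the difference of the pair means and bars from the lowest to the highest of the 4 differences between single arrays. The differences reach 2.54 under nicotinamide and 2.16 in toc1-1 at 73 h and lie below 0 at 61 and 85 h in both.

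A direct comparison, made with limma and Benjamini-Hochberg adjustment over the 13647 tested probe sets, was not itself used in choosing the gene. It set nicotinamide against toc1-1. The rhythm of CCL differed between them: the fitted curves stood apart by a wave of amplitude 1.52 (adjusted p = 3.48e-12, moderated F test of the cosine and sine terms, 24 and 24 arrays). The share of tested probe sets called in that test was 22.9%, which includes probe sets without a rhythm. CCL was chosen for a strong rhythm. Against untreated seedlings, 636 probe sets rhythmic in all conditions had median shifts of 7.35 h under nicotinamide and -3.78 h in toc1-1. The choice of a strong cycler thus favoured a call in this test. The peaks were 66.95 h under nicotinamide and 57.3 h in toc1-1, 9.68 ± 0.63 h apart (SE). That gap averages over both days. Fitted by day, the peaks were 66.2 and 58.7 h on the first and 92.3 and 79.3 h on the second. They lay further apart on the second day in these fits, and a change between the days was not shown by the test given below. The amplitude itself was 0.93 under nicotinamide and 0.65 in toc1-1, and the difference of 0.28 ± 0.12 (SE) did not pass the test (adjusted p = 0.323; 0.813% of probe sets called), nor did it when adjusted over probe sets rhythmic in either condition (adjusted p = 0.115). Higher by 0.21 ± 0.09 (SE) under nicotinamide, the mean level passed the threshold (10.70 against 10.49, adjusted p = 0.0245), where 80.3% of all probe sets were called and 30.3% were called higher. That call was lost after quantile normalization (0.15, adjusted p = 0.122), without the 3 nicotinamide arrays whose titles end in 2, at 49 and 65 h (0.19, adjusted p = 0.0546), without nicotinamide 81 h of the first time course (0.18, adjusted p = 0.0512) and without toc1-1 69 h of the first time course (0.17, adjusted p = 0.0628). It was also lost when the first nicotinamide time course (0.15), the first toc1-1 time course (0.23) or the second toc1-1 time course (0.20) was left out. The order of mean levels, nicotinamide above toc1-1 above untreated, is therefore not firm for its neighbours.

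At single times the pairs of nicotinamide and toc1-1 did not overlap at 10 of 12 times, 5 higher and 5 lower under nicotinamide, with 69% over all probe sets and times. The log2 difference was 1.78 at 65 h, with signals of 3476 and 3465 under nicotinamide and 1097 and 907 in toc1-1. It was -1.28 at 53 h and -1.21 at 77 h, where CCL was low under nicotinamide and at least 1395 in every toc1-1 array.

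The second 24 h, from 73 to 93 h, were compared with the first, from 49 to 69 h, within each condition. The second day was the higher one for CCL in every condition, and only in toc1-1 did the change pass the test. The mean level of toc1-1 was 10.81 on the second day and 10.17 on the first, a rise of 0.64 ± 0.12 (SE, 12 and 12 arrays; adjusted p = 0.0014, limma; 5.7% of probe sets called and 3.18% called higher). The signals ranged from 1068 to 2848 (median 1933) on the second day and from 367 to 1935 (median 1424) on the first, so the days overlapped. The first pair of times carried the largest share: 73 h exceeded 49 h by 1.99, while the other 5 pairs 24 h apart differed by 0.19 to 0.59. At the period of 20.9 h fitted to toc1-1 below, such pairs lie at unlike points of the wave, so they differ in timing as well as in day. Without 49 and 73 h the day difference of level was 0.37 and no longer called (adjusted p = 0.14). It was also not called when either toc1-1 time course was left out, at 0.66 without the first (adjusted p = 0.0994) and 0.62 without the second (adjusted p = 0.248), values that differ little from 0.64. With a cosine of the fitted period and a step between the days it was 0.59 (adjusted p = 0.00296).

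Under nicotinamide the mean level of CCL was 10.84 on the second day and 10.57 on the first, a difference of 0.27 ± 0.12 (SE, 12 and 12 arrays) that did not pass the test (adjusted p = 0.144; 7.55% of probe sets called). Its size depended on the arrays included. It was 0.10 without the first nicotinamide time course (adjusted p = 0.809) and 0.43 without the second (adjusted p = 0.0551). With 1 pair of times left out it was 0.16 without 49 and 73 h, 0.17 without 57 and 81 h, 0.19 without 53 and 77 h, 0.27 without 69 and 93 h and 0.39 without 61 and 85 h, none of them called (adjusted p from 0.11 to 0.475), and 0.45 without 65 and 89 h, which was called (adjusted p = 0.0474). In untreated seedlings the level was 10.63 on the second day and 10.26 on the first, a difference of 0.37 ± 0.12 (SE, 12 and 12 arrays; adjusted p = 0.255), in a test that called 0.0366% of probe sets. The untreated time courses disagreed on its size, with 0.09 in the first and 0.66 in the second. Of the 12 pairs of arrays 24 h apart within a time course, the later one was higher in 9 under nicotinamide, 10 in toc1-1 and 10 in untreated seedlings. Where the fitted period is not 24 h, these pairs also differ in timing. The day differences of level were not shown to differ between conditions (toc1-1 against untreated 0.27 ± 0.18, unadjusted p = 0.135, adjusted p = 1; nicotinamide against untreated -0.10 ± 0.18, adjusted p = 0.755, 1.03% of probe sets called; nicotinamide against toc1-1 -0.37 ± 0.18, adjusted p = 0.188, 5.35% called; limma, SE). For toc1-1 against untreated, limma called 0 of 13647 probe sets, with 634 at an unadjusted p under 0.05, so the adjusted p of 1 is not particular to CCL.

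The rhythm terms of the days were also compared, and no condition passed the test. Under nicotinamide the amplitude was 0.71 ± 0.12 on the second day and 1.22 ± 0.12 on the first, and the peak was 92.3 ± 0.66 h and 66.2 ± 0.39 h (SE, 12 arrays a day), which is 26.1 h apart. The difference of the rhythm terms between these days had an amplitude of 0.73 (adjusted p = 0.0759, moderated F test of limma; 0.491% of probe sets called). In toc1-1 the amplitude was 0.62 on the second day and 0.83 on the first, with peaks at 79.3 ± 0.77 h and 58.7 ± 0.57 h, 20.6 h apart (difference of terms 0.66, adjusted p = 0.316; 0.176% called). The toc1-1 time courses did not share the lower amplitude: it was 0.55 on the second day and 0.99 on the first in time course 1, and 0.71 and 0.69 in time course 2. In untreated seedlings it was 1.46 on the second day and 1.64 on the first, with peaks at 85.7 ± 0.32 h and 61.5 ± 0.29 h, 24.1 h apart (difference of terms 0.19, adjusted p = 1). The untreated time courses also went opposite ways, with 1.55 on the second day and 1.47 on the first in time course 1, and 1.41 and 1.83 in time course 2. Under nicotinamide both were lower on the second day, at 0.59 against 1.25 and 0.85 against 1.22. In that test 0 of 13647 probe sets were called by limma in untreated seedlings, with 295 at an unadjusted p under 0.05. Between conditions, the day differences of the rhythm terms were not shown to differ (moderated F test of limma). Nicotinamide against untreated gave an amplitude of 0.63 (unadjusted p = 0.0479, adjusted p = 0.775). For toc1-1 against untreated it was 0.49 (unadjusted p = 0.157), and for nicotinamide against toc1-1 0.40 (adjusted p = 0.853). The day difference of the nicotinamide rhythm passed its threshold under some alternatives and lay further from it under others. It passed with the replicate number as a block, when the first nicotinamide time course was left out, and when 1 array was left out, for 5 of the nicotinamide arrays. It did not pass without the nicotinamide arrays of 77 and 85 h that stood apart (0.65, adjusted p = 0.306), without the arrays of title ending in 2 (0.68, adjusted p = 0.118) or without the second nicotinamide time course (0.71, adjusted p = 0.107). Nor did it pass without either toc1-1 time course (adjusted p = 0.184 and 0.186). There the nicotinamide arrays and the value of 0.73 were unchanged, and only the error estimate and the adjustment moved.

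**Figure D3:**
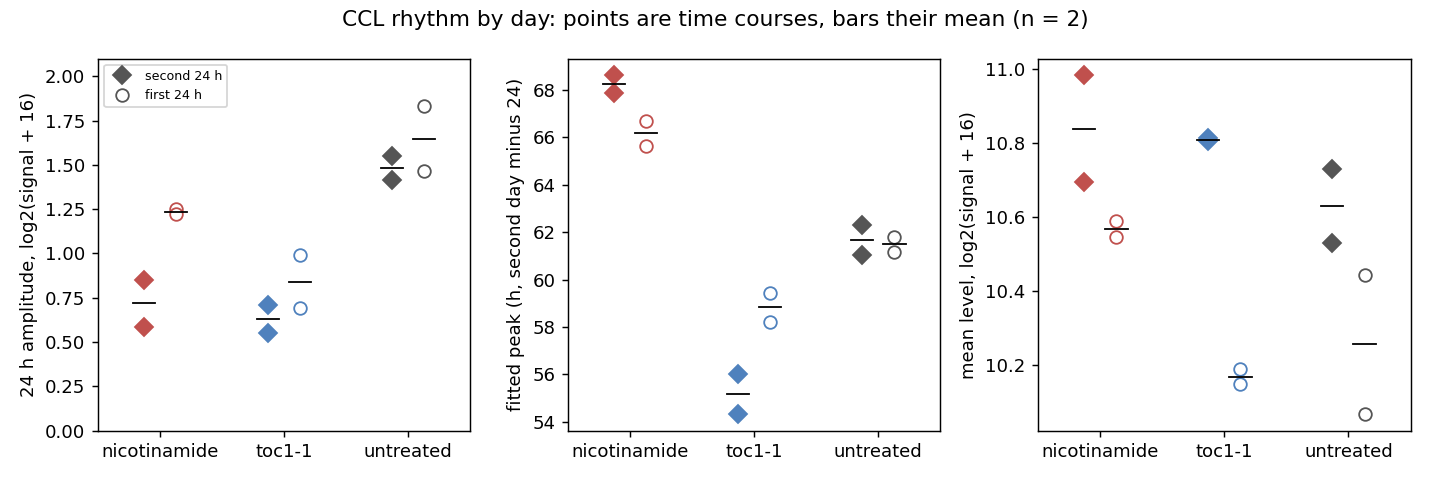
Amplitude, fitted peak and mean level of CCL by condition, with filled diamonds for the second 24 h, open circles for the first, 1 point for each time course and a bar for the mean of the 2, and 24 h subtracted from second-day peaks. The nicotinamide amplitudes of the second day lie below those of the first, the toc1-1 peaks of the second day lie earlier, and the toc1-1 mean levels of the second day, near 10.81, lie above both first-day values.

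The spacing of the daily peaks was also read as a period, by fitting a cosine with periods from 18 to 34 h to each time course. The best period of CCL was 25.5 and 26.8 h under nicotinamide, 20.8 and 21.1 h in toc1-1 and 24.6 and 25.1 h in untreated seedlings, with means of 26.15 ± 0.92 h, 20.95 ± 0.21 h and 24.85 ± 0.35 h (SD, n = 2 each). The time courses of the 3 conditions did not overlap, and how often this holds over all probe sets was not counted. At those periods, fitted to both time courses, the cosine held 80.0% of the variance of CCL under nicotinamide, 55.6% in toc1-1 and 84.0% in untreated seedlings. A 24 h cosine held 74.3%, 42.5% and 82.7% in that order. In toc1-1 the amplitude was 0.75 at the fitted period of 20.9 h, against 0.65 at 24 h, and was below the untreated value of 1.57 at 24.8 h. The sampled 44 h limit each of these periods.

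The clock genes fixed for comparison were few on this annotation. It named 3 of 19 core clock genes, 3 of 16 clock outputs and neither of 2 other short-lived transcripts. As it left 8794 probe sets without a gene, a gene that it does not name may still have a probe set. Among the core clock genes, GI, a protein that stabilises an evening photoreceptor, was rhythmic in every condition, TIC, a regulator of clock function, passed in untreated seedlings (adjusted p = 0.00631) and not under nicotinamide (0.0696) or in toc1-1 (0.438), and RVE6, a transcription factor of the clock, passed in none (moderated F test of limma). The clock outputs COR27 and COR28, small proteins induced by cold and light, and CDF5, a repressor of flowering, were rhythmic in all 3 conditions. The share of all tested probe sets called rhythmic was 32% under nicotinamide, 8.54% in toc1-1 and 22.9% in untreated seedlings. All rhythm calls used a cosine of 24 h, so rhythms of another period can be missed. For CCL in toc1-1 that cosine held 42.5% of the variance, against 55.6% at the fitted period. Like CCL, GI and COR27 had lower amplitudes in both comparisons: GI had 0.93 under nicotinamide and 0.75 in toc1-1, against 1.36 in untreated seedlings, and COR27 had 0.88 and 1.08, against 1.81. The adjusted p was 0.0156 and 0.00225 for GI and 0.000205 and 0.0197 for COR27 (limma). These were 2 of 6 measured genes called lower under nicotinamide and the same 2 in toc1-1, where 2.51% and 0.594% of all probe sets were called lower. The lists were fixed with earlier results of these data known, so these calls are a description and no independent support for CCL.

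CCL peaked after GI in every condition and no later than COR27 beyond the errors. It came 1.40 ± 0.48 h after GI under nicotinamide, 2.81 ± 0.64 h after it in toc1-1 and 2.95 ± 0.30 h after it in untreated seedlings (SE, 24 arrays each). The CCL peak minus the COR27 peak was -3.39 ± 0.62 h under nicotinamide, -0.48 ± 0.66 h in toc1-1 and -0.08 ± 0.33 h in untreated seedlings. Against COR28 it was -1.65 ± 0.53 h under nicotinamide, -1.43 ± 0.72 h in toc1-1 and -0.56 ± 0.38 h in untreated seedlings. CDF5, the other gene rhythmic in all conditions, lay further away. On a 24 h circle CCL came 4.22 ± 0.61 h after it under nicotinamide, 9.44 ± 1.08 h in toc1-1 and 8.42 ± 0.68 h in untreated seedlings. CCL and COR27 thus peaked together in untreated seedlings and in toc1-1 within their errors, and the CCL peak was the earlier one under nicotinamide. Whether these spacings differ between conditions was not tested. Among 636 probe sets called rhythmic in all conditions, the median shift under nicotinamide was 7.35 h with quartiles of 5.37 and 8.91 h, so CCL, at 5.37 h, stood at the lower quartile. In toc1-1 the median shift was -3.78 h with quartiles of -4.42 and -3.17 h, and CCL, at -4.31 h, lay between them.

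**Figure D4:**
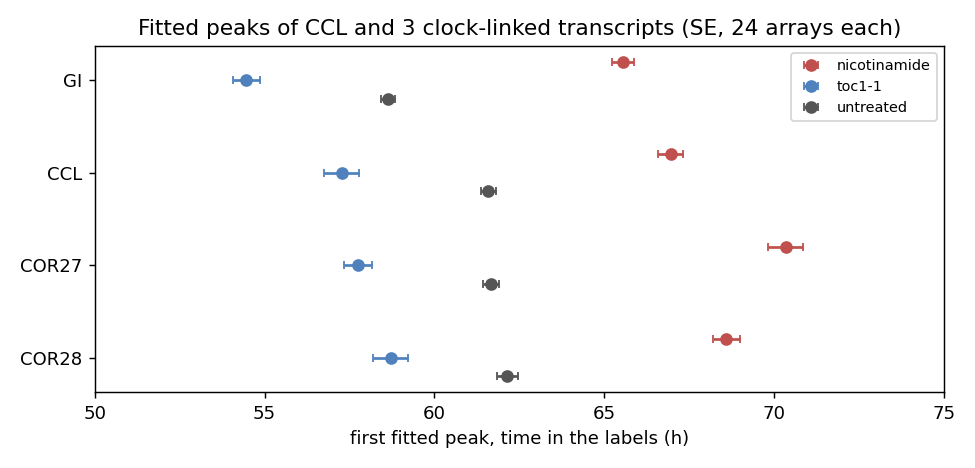
First fitted peak of GI, CCL, COR27 and COR28 in the hours of the labels, with nicotinamide above toc1-1 above untreated within each gene and bars for the SE (24 arrays each). In nicotinamide CCL lies 3.39 h before COR27, while in untreated seedlings both lie near 61.6 h.

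Transcripts with a pattern most like that of CCL were sought among 7281 tested probe sets with 1 named gene, by Pearson's r of log2(signal + 16). All points share their arrays, so r is a description. Over the 24 untreated arrays 14 probe sets had r over 0.9. The nearest was AT3G62550 with r = 0.97. It peaked at 60.95 h with an amplitude of 1.76 in untreated seedlings, and its r with CCL was 0.82 under nicotinamide and 0.92 in toc1-1. The next 7 were BGLU44, a beta-glucosidase (0.93), AT5G27280 (0.92), AT5G02160 (0.92), AT4G18930 (0.92), COR15B, a cold-induced chloroplast protein (0.91), AT4G14270 (0.91) and COR27 (0.91). In toc1-1 the r of these 8 with CCL ranged from 0.69 to 0.92, and under nicotinamide from 0.32 to 0.82. The lowest value was that of AT5G02160, which peaked at 71.4 h under nicotinamide.

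Over all 72 arrays the likeness was lower and the order differed. The highest were COR28 (r = 0.83), AT1G11210 (0.83), COR27 (0.83), AT3G26580 (0.82) and AT5G01750 (0.81), and only COR27 stood in both groups of genes. The beta-glucosidase BGLU44 had r = 0.19 over all arrays. With Spearman's rho, 4 of these 5 stayed among the highest 5, and 3 of the 8 of untreated seedlings among the highest 8. In the opposite direction, AFR, an F-box protein of far-red light signalling, had r = -0.91 over untreated arrays, -0.76 under nicotinamide and -0.69 in toc1-1, and its peak at 49.5 h was near the untreated trough of CCL. GR1, a glutathione reductase, had r = -0.90 in untreated seedlings and -0.02 under nicotinamide, and AT5G54130 had -0.89 in untreated seedlings.

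**Figure D5:**
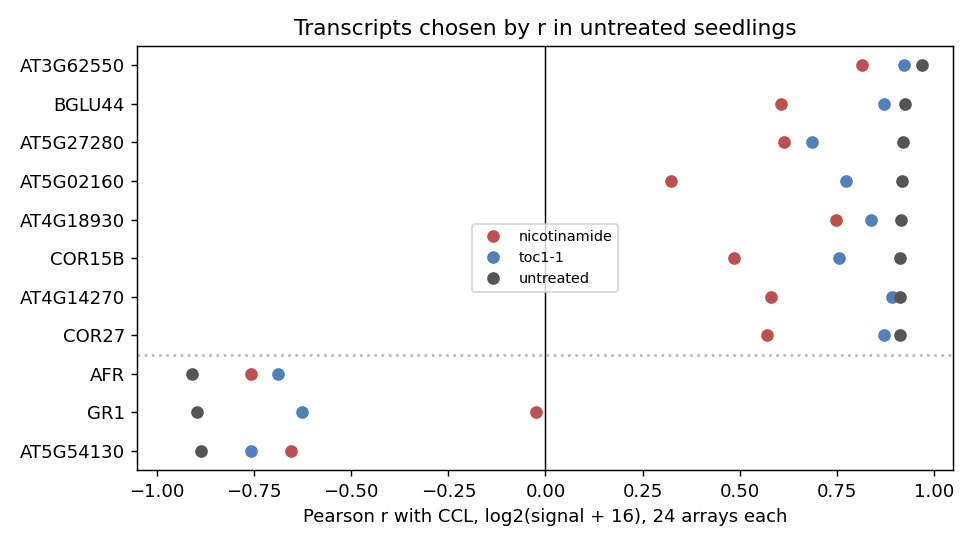
Pearson's r with CCL over the 24 arrays of each condition, for the 8 transcripts of highest and the 3 of lowest r in untreated seedlings, below the dotted line. The untreated points lie furthest from 0 by choice, those of toc1-1 reach 0.92, and that of GR1 under nicotinamide lies at -0.02.

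The neighbouring gene on 1 side of CCL in the reference annotation of assembly TAIR10.1, AT3G26730, had a probe set, and it was not called rhythmic in any condition (amplitude 0.14 under nicotinamide, 0.09 in toc1-1 and 0.12 in untreated seedlings; adjusted p = 0.228, 0.809 and 0.45 in that order, moderated F test). The strong wave of CCL was thus not seen in the gene beside it.

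The labelled tissue was checked with markers of leaf and root. Of 9 leaf markers 5 had a probe set named by the annotation, and 4 of the 5 were called lower under nicotinamide than in untreated seedlings (limma, 48.4% of all probe sets called lower). They were the chloroplast calcium sensor CAS, with a log2 difference of -2.06, and the light-harvesting proteins LHCB4.3 (-1.41), LHCB4.2 (-0.86) and LHCB4.1 (-0.28). RCA, the activase of Rubisco, stood at 0.13 without a call (adjusted p = 0.0793). In toc1-1 CAS was called higher (0.16; 22.1% of probe sets called higher), LHCB4.3 was called lower (-0.25; 19.6% called lower), and the other 3 were not called. The summed leaf signal had a median of 9988 under nicotinamide, 13155 in toc1-1 and 12649 in untreated seedlings. It ran from 7780 to 19703 under nicotinamide, from 8645 to 15150 in toc1-1 and from 9541 to 17706 in untreated seedlings, and no measured leaf marker had a median near 0. Of 9 root markers 6 had a probe set named by the annotation and 5 were tested, of which 5 were called lower under nicotinamide and 4 in toc1-1. Those 4 were peroxidases that earlier results of these data had shown to be low, so their calls are a description. The other tested marker, PYK10, was called lower under nicotinamide (-0.70) and not in toc1-1 (-0.0007, adjusted p = 0.995, limma). Their sum, most of it from the beta-glucosidase PYK10, ran from 1125 to 2990 under nicotinamide, from 2146 to 5093 in toc1-1 and from 1334 to 5988 in untreated seedlings. The root peroxidase AT4G26010 had medians of 0.766, 10.2 and 185 in the same order. In untreated seedlings the medians of AT5G17820, AT4G30170 and AT3G01190 were 116, 121 and 45.4. They were 11.1, 11.7 and 13.0 under nicotinamide and 16.3, 20.0 and 4.50 in toc1-1. PYK10 had medians of 2208 under nicotinamide, 3622 in toc1-1 and 3569 in untreated seedlings. Root marker signal was present on arrays labelled as aerial tissue, and its source was not tested. Some leaf and root markers thus differed with the condition, and their part in the CCL values was not tested. On arrays of whole tissue, fewer cells with the transcript and less transcript per cell cannot be told apart.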

How the data were processed

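ATH1 arrays were hybridised with biotin-labelled RNA, per the labels. The authors deposited intensity values, and the submitters' processing notes name MAS5 and GCOS without versions. The trimmed mean was checked on the values. Here log2(signal + 16) was used, which understates folds of low values. Of the probe sets left after 64 controls, the upper 60% by mean (13647) were tested. In limma 3.58.1 (R 4.3.3, trend on) every condition at every time had its own mean, leaving 36 residual degrees of freedom, with 6.74 prior ones. Cosine and sine terms are contrasts of those means, and SEs of amplitude and peak come from the same fit. Adjusted p values are Benjamini-Hochberg values over all tested probe sets, with a threshold of 0.05. Periods came from a grid of 0.1 h. The procedure was tested on simulated data. Precision depends on the number of arrays, which carry no read depth.

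The annotation gave 13513 probe sets 1 gene, 503 several and 8794 none, and 13436 matched a reference locus. No replicate pair was identical, and the lowest replicate correlation was 0.950. CCL, the lists, the tests and the rule for named genes (8 highest and 3 lowest r over untreated arrays, 5 highest over all) were chosen with earlier results of these data known, which had also shown 4 of the root peroxidases to be low. The alternatives changed the normalization, pseudocount (1, 64), filter (none, upper 40%), trend, replicate block, period and correlation measure, or left out arrays and time courses.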

Additional observations from a re-analysis of the deposited data

How the results depend on the processing

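Amplitude and peak differences between conditions kept their sign under every alternative run. The amplitude gaps from untreated seedlings were part of the choice of the gene, so their keeping is no support. The rhythm difference of nicotinamide and toc1-1 passed in each alternative, in a test that the choice of a strong cycler favoured. Quantile normalization gave an amplitude difference of nicotinamide minus untreated of -0.47, and fitted periods gave peak differences of -3.04 h for toc1-1 minus untreated and 8.89 h for nicotinamide minus toc1-1. The mean level of nicotinamide minus toc1-1 lost its call at 0.15 (quantile normalization) and 0.19 (without the 3 arrays of title ending in 2). Leaving out pairs of times, an alternative chosen after seeing the data like the step between days and the narrower adjustment of the amplitude, gave 0.37 without a call for the second-day difference of toc1-1 (without 49 and 73 h) and, for that of nicotinamide, 0.16 to 0.39 without a call for 5 of the pairs and 0.45 with a call without 65 and 89 h. Without nicotinamide time course 1 the nicotinamide difference was 0.10 and without time course 2 it was 0.43, neither called. With 1 array or time course left out, the amplitude of toc1-1 minus untreated ran from -0.99 to -0.81, and the mean level of nicotinamide minus toc1-1 from 0.15 to 0.28. The second-day difference of toc1-1 ran from 0.55 to 0.73, and the day difference of the nicotinamide rhythm from 0.62 to 0.86. The cause was not tested, although a left-out time course leaves fewer arrays.

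With the replicate number as a block, the replicate block moved that nicotinamide rhythm difference of 0.73 past the threshold (adjusted p = 0.0373) and changed no other call; without the nicotinamide arrays of 77 and 85 h that stood apart its adjusted p was 0.306. Same-numbered arrays deviated together only in part: the median correlation over 12 times was 0.20 for nicotinamide and untreated, 0.08 for toc1-1 and untreated and 0.05 for nicotinamide and toc1-1, with r over 0.1 at 10, 5 and 5 times, so the numbers were not taken as pairs.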
